A study of Mus musculus with 69 samples.

Results

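The integrin genes are described here in mouse aortic smooth muscle cells and cardiac endothelial cells exposed to metabolic and humoral stressors. Members were taken by name alone: every protein-coding gene of the GRCm39 annotation whose symbol starts with Itga or Itgb, which gave 31 of the 56953 genes in the count tables. Of these, 27 encode integrin subunits (18 alpha and 9 beta) and 4 (Itgb1bp1, Itgb1bp2, Itgb3bp and Itgbl1) share the letters of the symbol without being subunits. A single gene is described where its mean level reached 3 FPM (fragments scaled to a common library size, after TMM scaling over all 69 libraries) in at least 1 cell type, which held for 21 genes: 13 alpha subunits, 5 beta subunits and 3 of the genes that are not subunits. All 21 reached 3 FPM in each of the cell types.

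Integrins are adhesion receptors made of 1 alpha and 1 beta chain. The alpha chain mainly sets which matrix protein is bound, collagen, laminin or ligands with the short RGD motif such as fibronectin, and the beta chain binds talin and kindlin on the inside of the cell and so couples the matrix to actin. In the vessel wall these receptors anchor smooth muscle cells in the media and endothelial cells on their basement membrane, and they act together with growth factor receptors such as the EGF receptor.

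Bulk RNA was measured in primary cultures of male C57BL/6 mice. WT VSMC (vascular smooth muscle cells of wild-type mice, sets 1 to 4) and KO VSMC (cells of mice in which floxed Egfr was removed by a Cre under the SM22 promoter, sets 5 to 8) were grown from the aorta, and EC (endothelial cells, genotype label WT, sets 9 to 18) were grown from the heart on fibronectin-coated dishes after removal of CD45+ cells and magnetic selection on CD31. Each set is a culture divided over 4 conditions in serum-free medium for 24 h. These were Control, HG + FFA (20 mM glucose with free fatty acids, 100 µM in the labels and 100 µM each of oleate and palmitate in the paper), AII + NA (30 nM angiotensin II with 300 nM of a catecholamine, epinephrine in the labels and norepinephrine in the paper) and ALL (all of these together). There were 4 libraries per condition in WT VSMC, 4 in KO VSMC except 3 for ALL, and 9, 10, 9 and 10 in EC for Control, HG + FFA, AII + NA and ALL. Set 5 of KO VSMC lacks ALL, and among EC cultures set 10 lacks Control and set 15 lacks AII + NA; these 3 libraries were not analysed here. Sets of each VSMC genotype came from 4 animals and the 10 EC sets from 9 animals. The animals of EC sets 15 and 16 also gave KO VSMC, and those of EC sets 9 and 10 also gave WT VSMC sets 1 and 2. All VSMC libraries carry the batch label B1 and all EC libraries B2, so batch, organ and cell type cannot be told apart.

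Library totals ranged from 17166133 to 43240489 counts. Egfr, averaged over a set, ran from 246 to 430 FPM in WT VSMC and from 0.960 to 1.84 FPM in KO sets 6 to 8, but stood at 36.5 FPM in KO set 5. In EC sets 9, 11 and 13 the endothelial genes Pecam1 (25.7, 42.4 and 18.1 FPM) and Cdh5 (8.73, 41.7 and 11.96 FPM) were far below the other EC sets (259.5 to 1594 and 110.5 to 902.5 FPM), which goes against their label, and summed smooth muscle markers in sets 11 and 13 reached 3254 and 2960 FPM against 213.5 to 840 FPM in all other EC sets. In EC sets 9, 11 and 13, 5 summed fibroblast markers averaged 1572, 3640 and 4202 FPM. The other EC sets had 174.2 to 1484 FPM. WT VSMC carried the smooth muscle genes Acta2 at a mean of 878.6 FPM, Smtn at 66.4 FPM, Lmod1 at 45.2 FPM and Cnn1 at 22.9 FPM. Myh11 averaged 7.40 FPM, Tagln 3.87 FPM, Des 1.435 FPM and Myocd 0.340 FPM. These 8 smooth muscle markers summed to 345.3 to 2079 FPM per library in WT VSMC. The same 5 fibroblast markers summed to 1344 to 4269 FPM per library there. The pan-leukocyte gene Ptprc averaged 0.465, 0.247 and 0.251 FPM in WT VSMC, KO VSMC and EC. Lyz2, another leukocyte marker, averaged 86.1, 41.3 and 36.7 FPM. All 10 leukocyte markers summed to 31.7 to 242.2 FPM per library in WT VSMC. The sums were 12.2 to 167.7 FPM in KO VSMC and 5.51 to 107 FPM in EC. In bulk samples such as these, fewer cells of a type and less RNA per cell cannot be told apart.

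The start regions of 3 alpha subunits on which the results turn are shown first: Itga8, which changed with the humoral stressors in WT VSMC, and Itga3 and Itga4, whose levels differed between EC and WT VSMC. Each is the 250 bases upstream of a gene start in RefSeq on GRCm38.p6, read 5′ to 3′ on the strand of the gene, with GGGCGG (a GC box, searched on both strands) in capitals where it lies on that strand.
Itga8 (chr2:12301945-12302194, minus strand): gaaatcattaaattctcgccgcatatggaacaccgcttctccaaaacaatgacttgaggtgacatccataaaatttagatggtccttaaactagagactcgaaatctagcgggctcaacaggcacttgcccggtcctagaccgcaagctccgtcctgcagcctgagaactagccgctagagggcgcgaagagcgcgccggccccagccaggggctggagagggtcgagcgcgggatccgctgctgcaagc
Itga3 (chr11:95076715-95076964, minus strand): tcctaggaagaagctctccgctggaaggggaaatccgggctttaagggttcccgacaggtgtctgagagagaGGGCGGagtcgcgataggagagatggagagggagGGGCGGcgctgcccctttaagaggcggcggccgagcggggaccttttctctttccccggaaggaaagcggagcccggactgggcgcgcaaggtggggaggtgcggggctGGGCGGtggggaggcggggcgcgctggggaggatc
Itga4 (chr2:79255176-79255425, plus strand): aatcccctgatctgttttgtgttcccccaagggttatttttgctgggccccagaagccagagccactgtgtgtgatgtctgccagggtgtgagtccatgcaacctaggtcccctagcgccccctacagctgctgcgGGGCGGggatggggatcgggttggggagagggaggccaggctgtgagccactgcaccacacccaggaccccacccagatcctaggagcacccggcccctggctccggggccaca

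The GC content of these windows was 56.4% for Itga8, 67.6% for Itga3 and 64.0% for Itga4. The Itga3 window shown held 3 GC boxes, and another RefSeq window of Itga3, not shown, held 1 at a GC content of 50.8%. Itga4 held 1, while Itga8 held no match to any of the 5 motifs searched. Those motifs were GGGCGG (in 32.7% of 32851 promoter windows of this length), TATAAA (12.4%), the TEAD motif GGAATG (12.6%), the AP-1 motif TGANTCA (6.75%) and the CArG box bound by serum response factor (1.47%). RefSeq windows were found for 22 of the 31 integrin genes, and 7 of these held a GC box (Itga3, Itga4, Itga5, Itgam, Itgb1, Itgb5 and Itgbl1). A match or its absence describes these letters in this window alone. For Itga8 the annotation used here for gene symbols puts the gene start at chr2:12307214 on GRCm39, minus strand. Positions were not converted between the builds, and start sites outside this window are not covered by it.

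Levels between genes are compared per kilobase of exon, with the exons of all annotated transcripts of a gene merged. On that scale the beta subunits Itgb1, the common partner of many alpha chains, and Itgb5, a partner of the alphaV chain, stood first and second in all cell types. Itgb1 had a mean over libraries of 205.7 FPM per kb in WT VSMC, 225 FPM per kb in KO VSMC and 295.5 FPM per kb in EC, and Itgb5 had 122.7, 171.4 and 94.14 FPM per kb. Among alpha subunits in WT VSMC the highest were the collagen receptor chain Itga11 (17.62 FPM per kb), the fibronectin receptor chain Itga5 (15.57), the RGD-binding chain Itgav (9.117), the collagen receptor chain Itga1 (5.901) and Itga8 (5.016). This order depends on the merged exon length, 21337 bases for Itga1 and 6162 for Itga11. Without division by length Itga1 was the highest alpha subunit in WT VSMC (125.9 FPM), ahead of Itgav (112.5 FPM) and Itga11 (108.6 FPM). The laminin receptor chain Itga3 was among the 5 highest alpha subunits in KO VSMC (16.24 FPM per kb) and EC (14.45) but not in WT VSMC (1.942). In KO VSMC the laminin receptor chain Itga7 (5.587 FPM per kb) was also among them, ahead of Itga11 (4.723), Itga8 (3.687) and Itga1 (3.398). In EC, Itga9 (5.268 FPM per kb) and Itga4 (4.552) stood above Itga8 (3.085). The summed level of the integrin subunits, without the members that are not subunits, was 2704 FPM in WT VSMC, 3137 FPM in KO VSMC and 3434 FPM in EC.

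**Figure D1:**
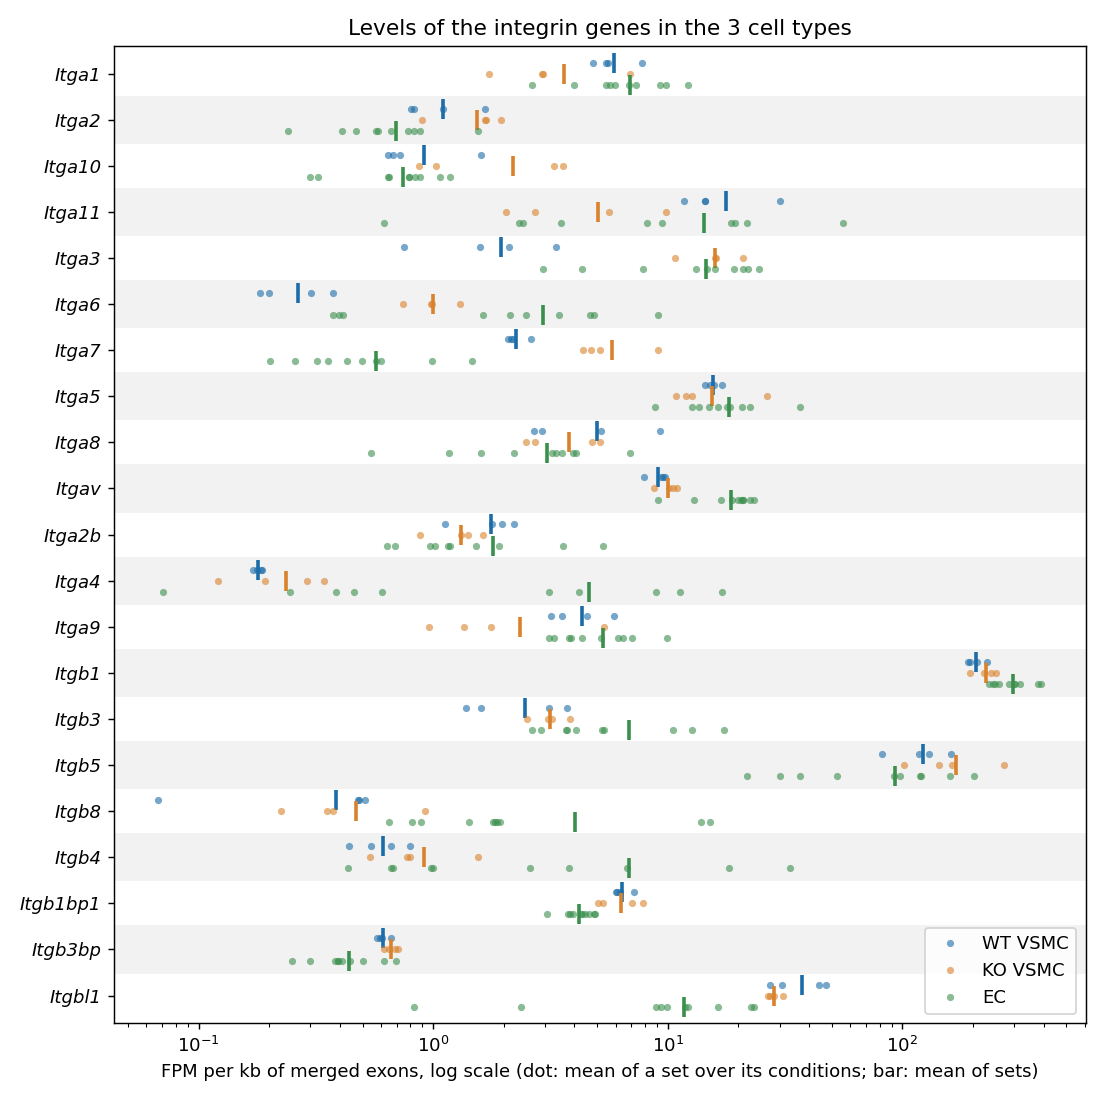
Mean level of the described integrin genes in each set of WT VSMC, KO VSMC and EC (points are sets, bars the mean over sets; log axis in FPM per kb of exon). Itgb1 and Itgb5 lie highest in all cell types, while Itga3 separates the 4 WT VSMC sets from the KO VSMC sets.

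The 10 members below 3 FPM had cell type means from 0 to 2.952 FPM. They are the 5 leukocyte alpha chains (Itgad, Itgae, Itgal, Itgam and Itgax), the leukocyte beta chains Itgb2, Itgb2l and Itgb7, the epithelial alphaV partner Itgb6, and Itgb1bp2. The members nearest to the limit were Itga4 and Itga6 in WT VSMC (3.008 and 3.013 FPM, just inside) and Itgb2 (2.952 FPM, just outside). Counting used exons without a stated strand, and the share of exon bases that overlap another gene was 67.4% for Itgam, 43.6% for Itgb1bp1, 42.1% for Itgbl1, 35.7% for Itga10, 21.6% for Itgb3bp, 20.8% for Itga4, 17.5% for Itgb4, 14.1% for Itga1 and 10.3% for Itga2b. Reads in those stretches cannot be assigned to 1 gene with certainty.

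Stressor effects were tested within sets over all genes, and a gene was called a DEG where edgeR and DESeq2 both gave a Benjamini-Hochberg FDR under 0.05, the log2FC was at least 0.64 in either direction, and 1 of the compared groups averaged 3 FPM or more. By this rule 2 integrin genes changed in WT VSMC after 24 h. The RGD receptor chain Itga8 rose and the alphaV partner Itgb3 fell. With ALL, Itga1, Itga3, Itga7 and Itga11 also rose at an FDR under 0.05 in both tools, but by less than the fold threshold. In WT VSMC, 0 of 25 tested members were DEG with HG + FFA (0.284% of all tested genes were), 1 with AII + NA (0.0414%) and 2 with ALL (2.18%). In KO VSMC, 0 of 23 members were DEG with HG + FFA (0.285%), AII + NA (0%) or ALL (0.314%). In EC, 0 of 23 members were DEG with HG + FFA (0.647%), AII + NA (0%) or ALL (0.641%).

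Those counts of 0 can be set beside looser criteria. At an unadjusted edgeR p under 0.05, 6 members passed in WT VSMC with HG + FFA (11.2% of all tested genes did), and DESeq2 alone gave an FDR under 0.05 for 2 (1.74%). In KO VSMC 2, 6 and 4 members had an unadjusted p under 0.05 for HG + FFA, AII + NA and ALL (12.4%, 9.76% and 10.5% of genes), and 2, 1 and 2 a DESeq2 FDR under 0.05 (1.4%, 0.0627% and 1.48%). In EC 4, 1 and 9 members had an unadjusted p under 0.05 (16.9%, 6.67% and 16.2%), and 1, 0 and 2 a DESeq2 FDR under 0.05 (5.65%, 0% and 5.22%). With ALL stressors in EC all 9 of these members were lower, as were 9.35% of all genes. These figures are descriptions, since none of the members concerned passed both tools and the fold threshold. The median log2FC over the tested members stayed between -0.173 and 0.113 in the 9 comparisons with Control, against -0.012 to 0.010 over all tested genes.

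**Figure D2:**
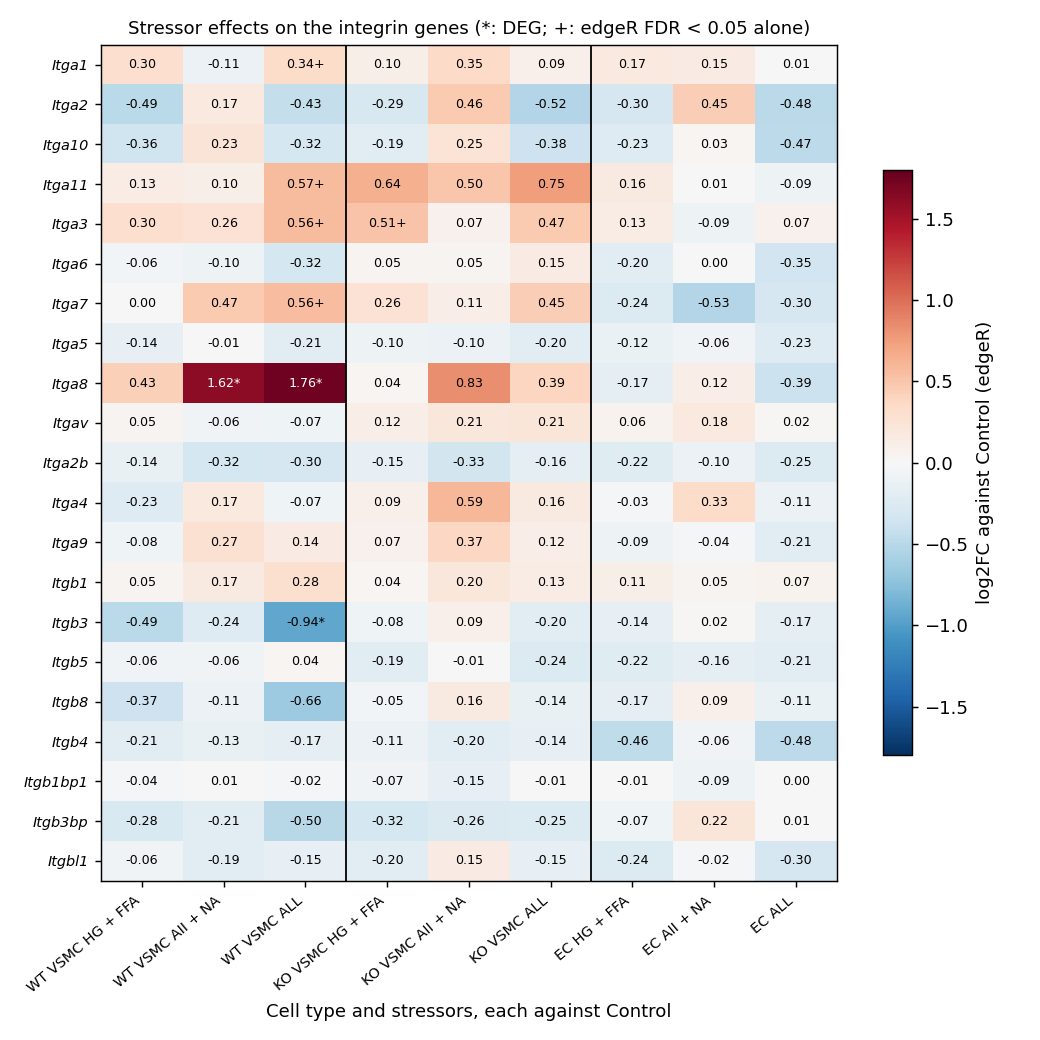
log2FC against Control (colour) of each described integrin gene for the stressor conditions in WT VSMC, KO VSMC and EC, with DEG marked. The marked cells are Itga8 with AII + NA and ALL and Itgb3 with ALL, all in WT VSMC.

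Itga8 (ENSMUSG00000026768, GRCm39 chr2:12110900-12307214, minus strand) encodes the alpha chain that pairs with beta1 and binds RGD ligands such as nephronectin and fibronectin, and it is abundant in contractile smooth muscle. In WT VSMC its level under Control was 16.1, 21.9, 19.3 and 31.2 FPM in sets 1 to 4. With HG + FFA the same sets read 18.8, 39.8, 26.4 and 33.5 FPM. With AII + NA they read 47.9, 69.9, 32.3 and 161.6 FPM, and all of these lay above the Control libraries. With ALL they read 43.2, 92.5, 38.2 and 173.6 FPM, again above all Control libraries, with set 4 highest in both conditions.

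Itga8 rose in 4 of 4 sets with AII + NA, by 1.67 to 5.17 times per set (log2FC 1.62, SE 0.25, edgeR FDR 0.0278, DESeq2 FDR 0.000172). It also rose in 4 of 4 sets with ALL, by 1.97 to 5.55 times (log2FC 1.76, SE 0.25, edgeR FDR 0.000918). The HG + FFA difference was 0.43 (SE 0.25, edgeR FDR 0.557), and the departure of ALL from the sum of the separate effects was called for 0 members (0% of all tested genes; 0 members at an unadjusted p under 0.05, as for 1.72% of genes, and 0 by DESeq2, as for 0%). ALL compared directly with HG + FFA gave 0 DEG among the members (0.0296% of tested genes), while 6 members had an unadjusted p under 0.05 (10.8% of genes) and 2 a DESeq2 FDR under 0.05 (1.33%), with Itga8 at log2FC 1.32 and FDR 0.0744 in edgeR and 0.00411 in DESeq2. The AII + NA call did not hold without set 1, 2 or 4 (edgeR FDR 0.0983, 0.224 and 0.0636), whereas the ALL call held without any single set. In a fit without the set as a block neither was called (edgeR FDR 1 and 0.357).

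Of 8 smooth muscle markers in the same libraries, 0 were DEG with AII + NA (0.0414% of all tested genes) and 1 with ALL (2.18%), Tagln (log2FC 0.95). Their median log2FC was 0.73 with AII + NA and 0.73 with ALL in WT VSMC, and in KO VSMC the medians were 0.12 and -0.02. The part of this in the Itga8 result was not tested.

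In KO VSMC, Itga8 read 55.8, 19.2, 25.3 and 29.7 FPM under Control in sets 5 to 8. With AII + NA it read 61.0, 39.4, 46.4 and 73.6 FPM, higher in 4 of 4 sets by 1.09 to 2.48 times while the ranges overlapped (log2FC 0.83, SE 0.17, edgeR FDR 0.509, DESeq2 FDR 0.00779). With ALL the 3 libraries of sets 6 to 8 read 28.9, 22.8 and 59.8 FPM, higher in 2 of 3 sets (log2FC 0.39, SE 0.19, edgeR FDR 0.489). Set 5, with the highest Egfr of the KO sets, had the highest Control level and the smallest AII + NA ratio. The test of the difference itself called 0 of 26 members between WT VSMC and KO VSMC for HG + FFA (0%), AII + NA (0%) and ALL (0.0109%). For Itga8 that difference was 0.79 (SE 0.33, unadjusted p = 0.0227, edgeR FDR 0.401) with AII + NA and 1.37 (SE 0.35, unadjusted p = 0.000614, edgeR FDR 0.223) with ALL, so a smaller response without Egfr was not established, and neither was an equal one. By DESeq2 FDR alone 0 members passed in these 3 comparisons (0%, 0% and 0.316% of genes), and 2, 3 and 2 members had an unadjusted edgeR p under 0.05 (3.08%, 11.9% and 7.42%).

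In EC, Itga8 ranged widely within every condition. Its lowest, median and highest Control values were 4.69, 35.1 and 74.1 FPM. With ALL they were 5.72, 26.0 and 63.8 FPM, with AII + NA 4.10, 42.3 and 97.3 FPM. The groups overlapped almost fully, and ALL was higher in 4 of 9 sets (log2FC -0.39, SE 0.15, edgeR FDR 0.180). The effect in WT VSMC exceeded that in EC by 1.49 with AII + NA (SE 0.30, edgeR FDR 0.0257) and by 2.13 with ALL (SE 0.30, edgeR FDR 5.69e-05). For these tests of a difference between WT VSMC and EC, 0 of 27 members were DEG with HG + FFA (0% of tested genes; 2 members at an unadjusted p under 0.05 against 2.05% of genes, and 0 by DESeq2 FDR against 0.0155%), 1 with AII + NA (0.0465%) and 2 with ALL (0.418%). The AII + NA difference was lost without WT set 2 or 4, without EC set 17, and without EC sets 15 and 16. It was also lost with the animal as the block in EC (edgeR FDR 0.377) and with no set block (edgeR FDR 1), where the ALL difference was lost too. Without EC sets 9, 11 and 13 the differences were 1.55 and 2.42 and were still called, and within EC alone Itga8 then was a DEG, lower with ALL.

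**Figure D3:**
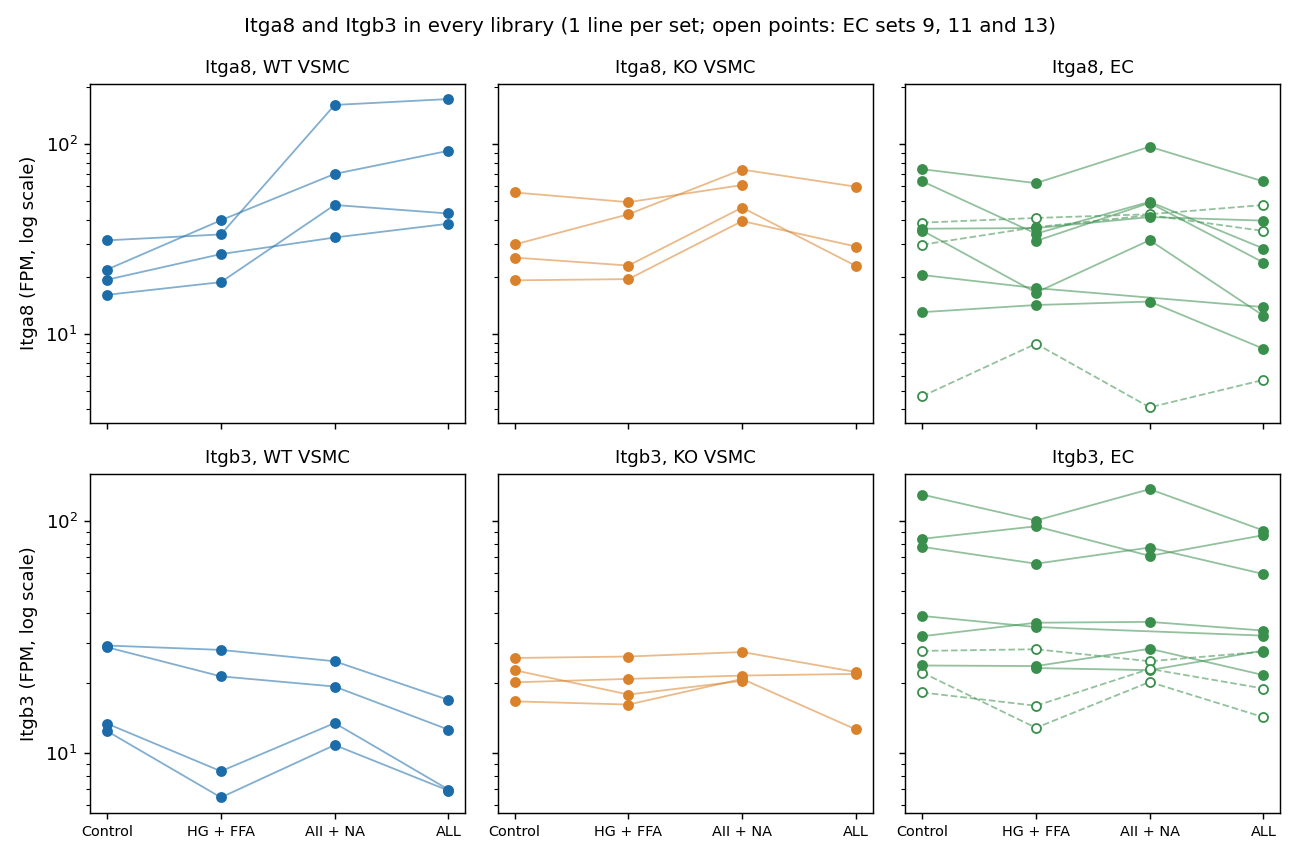
Itga8 and Itgb3 in every library of WT VSMC, KO VSMC and EC by condition (points in FPM on a log axis, lines join the libraries of a set). In WT VSMC, Itga8 lies above Control in every set with AII + NA and ALL, and Itgb3 lies below Control in every set with ALL.

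Itgb3 (ENSMUSG00000020689, GRCm39 chr11:104498826-104561302, plus strand) encodes the beta chain that with alphaV binds vitronectin, osteopontin and fibronectin. In WT VSMC it read 12.5, 29.1, 13.4 and 28.6 FPM under Control. With HG + FFA it read 6.46, 27.9, 8.38 and 21.4 FPM, and with AII + NA 10.9, 24.9, 13.5 and 19.4 FPM. With ALL it read 6.92, 16.99, 6.99 and 12.7 FPM, and although the ranges overlapped, every set was below its own Control. The ratio of ALL to Control was 0.444 to 0.585 in the 4 sets (log2FC -0.94, SE 0.14, edgeR FDR 0.00146), and this call held without any single set but not without the set as a block (edgeR FDR 0.997).

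The HG + FFA and AII + NA differences of Itgb3 were not DEG (log2FC -0.49, edgeR FDR 0.154, DESeq2 FDR 0.0496, and -0.24, edgeR FDR 0.645). In KO VSMC, Itgb3 was 22.8, 20.2, 16.7 and 25.7 FPM under Control and 21.97, 12.7 and 22.4 FPM with ALL in sets 6 to 8 (log2FC -0.20, edgeR FDR 0.600). In EC the lowest, median and highest values were 18.3, 31.9 and 130 FPM under Control and 14.3, 29.9 and 91.0 FPM with ALL (log2FC -0.17, edgeR FDR 0.322). The ALL effect was lower in WT VSMC than in EC by 0.77 on the log2 scale (difference -0.77, SE 0.17, edgeR FDR 0.0145), a call lost without WT set 2, 3 or 4 and without EC sets 15 and 16. It was also lost with the animal as the block in EC (edgeR FDR 0.920), with no set block (edgeR FDR 1) and at a log2FC threshold of 1. Against KO VSMC the difference was -0.73 (SE 0.20, edgeR FDR 0.298). In the same WT VSMC libraries the endothelial gene Cdh5 fell with ALL (log2FC -1.17), the 9 endothelial markers had a median log2FC of -0.61, and their sum was 2.52 to 73.9 FPM per library. The part of endothelial RNA in the Itgb3 result was not tested.

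The other alphaV partners gave no DEG under any stressor. Itgb5 under Control was 1203, 854.7, 565.6 and 909.9 FPM in WT VSMC and 1122, 948.8, 608.6 and 913.5 FPM with ALL, a difference of 0.04 (edgeR FDR 0.857). Itgb8, which with alphaV activates latent TGF-beta, stood at 5.61, 6.17, 1.25 and 6.90 FPM under Control and at 5.32, 2.30, 0.432 and 5.54 FPM with ALL, lower in every set but not past the test (log2FC -0.66, SE 0.29, edgeR FDR 0.192). The alphaV chain itself had 96.5 to 125.1 FPM under Control and 103.4 to 115.8 FPM with ALL. Itgb1 was between 1011 and 1494 FPM in all 16 WT VSMC libraries, and with ALL it was higher in 4 of 4 sets by 1.07 to 1.35 times without being a DEG.

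Among the 4 collagen-binding chains, Itga1 and Itga11 differed from Control by less than the fold threshold. By edgeR FDR alone, without a fold threshold, 7 members passed with ALL in WT VSMC (7.45% of all tested genes), 6 higher (Itga8, Itga3, Itga1, Itga11, Itga7 and the scarce Itgb6) and 1 lower (Itgb3). Itga1 was 110.3, 88.6, 146.5 and 109.6 FPM under Control and 134.3, 109.6, 189.1 and 143.1 FPM with ALL, higher in 4 of 4 sets (log2FC 0.34, edgeR FDR 0.0148). Itga11, a receptor for fibrillar collagen, was 179.8, 55.8, 76.6 and 74.0 FPM under Control and 244.3, 97.9, 103.5 and 111.8 FPM with ALL, also higher in 4 of 4 sets (log2FC 0.57, edgeR FDR 0.0214). Set 1 held the highest Itga11 in every condition.

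In KO VSMC no Itga11 difference was a DEG. It read 59.2, 7.00, 25.6 and 10.0 FPM under Control and 57.2, 12.4, 47.0 and 20.2 FPM with HG + FFA (log2FC 0.64, edgeR FDR 0.176). With ALL it read 17.6, 36.7 and 18.1 FPM in sets 6 to 8, higher in 3 of 3 (log2FC 0.75, edgeR FDR 0.139). Without set 5 both differences became DEG. In EC the lowest, median and highest Itga11 values were 5.36, 47.9 and 415.4 FPM under Control and 1.04, 51.6 and 327.3 FPM with ALL. Itga2 and Itga10, the remaining collagen receptor chains, had cell type means over libraries of 4.93 to 10.95 and 3.82 to 11.8 FPM. Neither was a DEG against Control in any cell type. In WT VSMC with HG + FFA both had an unadjusted edgeR p under 0.05 (0.0208 and 0.0325).

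The chains grouped here as laminin-binding are Itga3, Itga6 and Itga7. Itga3 was 3.15, 18.4, 7.57 and 9.03 FPM under Control in WT VSMC and 5.78, 22.3, 10.8 and 14.7 FPM with ALL, higher in 4 of 4 sets by 1.21 to 1.81 times (log2FC 0.56, edgeR FDR 0.0101). In KO VSMC it was 53.5, 77.4, 99.2 and 76.4 FPM under Control and 78.4, 99.0, 151.2 and 110.7 FPM with HG + FFA, higher in 4 of 4 sets (log2FC 0.51, edgeR FDR 0.0203). Both changes were past the FDR but under the fold threshold. Itga7, a chain typical of muscle, was 17.2, 13.7, 16.03 and 14.2 FPM in WT VSMC under Control and 16.4, 25.3, 20.2 and 29.4 FPM with ALL, higher in 3 of 4 sets (log2FC 0.56, edgeR FDR 0.0272).

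Itga6 and its partner Itgb4, which forms hemidesmosomes with it in epithelia, were not DEG with any stressor in EC. In EC, Itga6 had a lowest, median and highest value of 4.58, 33.7 and 115.5 FPM under Control and 4.12, 20.4 and 72.9 FPM with ALL (log2FC -0.35, SE 0.11, edgeR FDR 0.0810). Itgb4 had 3.94, 8.09 and 307.3 FPM under Control and 3.06, 11.5 and 184.2 FPM with ALL (log2FC -0.48, SE 0.15, edgeR FDR 0.0750). Each was higher with ALL in only some sets, 2 of 9 for Itga6 and 3 of 9 for Itgb4.

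The remaining members gave no DEG. Itga5, the classical fibronectin receptor chain, was 71.5 to 100.2 FPM under Control and 65.9 to 87.0 FPM with ALL in WT VSMC. Itga9, which binds tenascin-C and osteopontin, was 25.2 to 35.3 and 25.2 to 55.3 FPM, and Itga2b, the platelet chain, was 10.2 to 23.8 and 9.38 to 15.4 FPM. Of the members that are not subunits, Itgbl1, a secreted protein with integrin-like repeats, was 271.8 to 556.5 FPM under Control, Itgb1bp1, which binds the beta1 tail, 37.8 to 49.0 FPM, and the centromere protein gene Itgb3bp 6.48 to 7.92 FPM. None of these was a DEG under any stressor in any cell type.

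Under Control, KO VSMC and WT VSMC differed most in the laminin receptor chain Itga3, and no member passed both tests. Of 25 tested members 0 were DEG (0% of 17638 genes), 3 had an unadjusted p under 0.05 (5.63% of genes), and 1, Itga3, had a DESeq2 FDR under 0.05 (0.181%). Its 4 WT VSMC libraries read 3.15 to 18.4 FPM and its 4 KO VSMC libraries 53.5 to 99.2 FPM, without overlap (log2FC 3.01, SE 0.61, edgeR FDR 0.303, DESeq2 FDR 0.000606). In 3 members the libraries did not overlap, all higher in KO VSMC, against 5.12% of all tested genes in either direction and 2.71% higher. The other members were Itga6, with 1.99 to 4.84 FPM in WT VSMC and 6.33 to 16.3 FPM in KO VSMC (log2FC 1.76, edgeR FDR 0.814), and Itga7, with 13.7 to 17.2 and 29.4 to 66.8 FPM (log2FC 1.46, edgeR FDR 0.814). These 3 genes are the members grouped here as laminin-binding alpha chains. None of them was a DEG in this comparison, and the group as such was not tested. Itga8 and Itgb3, the members that responded in WT VSMC, differed by 0.55 (edgeR FDR 0.904) and 0.03 (edgeR FDR 0.997). Beside these values, 6 mesothelial and epithelial markers summed to 3.18 to 8.30 FPM per library in WT VSMC and to 6.57 to 93.2 FPM in KO VSMC. In the same comparison the median log2FC was -1.77 over 5 fibroblast markers, -1.33 over 9 endothelial markers, -1.03 over the 9 tested leukocyte markers and 1.16 over 8 smooth muscle markers, with 0 DEG among them. The part of these cell types in the Itga3, Itga6 and Itga7 differences was not tested. KO and WT VSMC came from different animals, 4 of each.

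**Figure D4:**
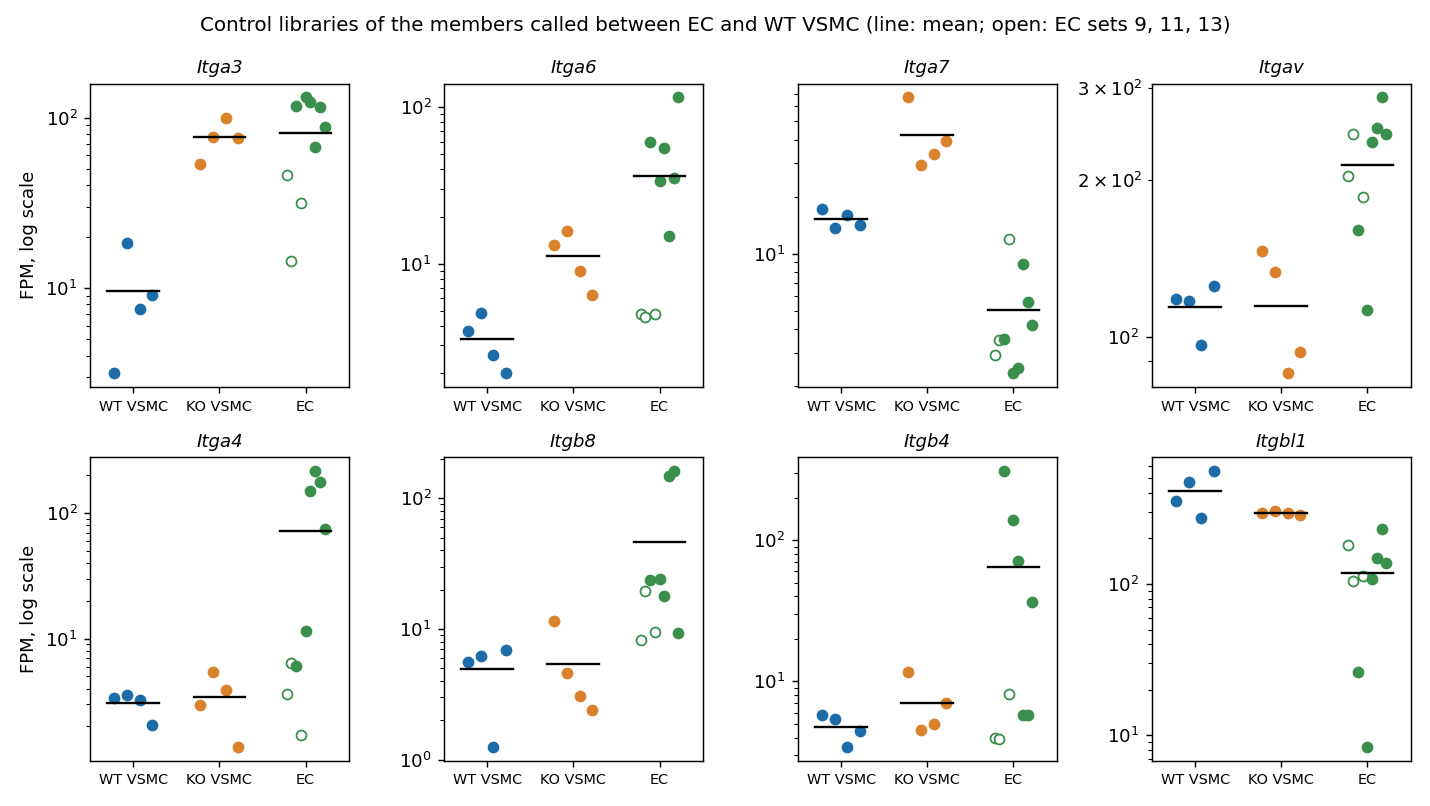
Control libraries of WT VSMC, KO VSMC and EC for the members that differed between EC and WT VSMC or did not overlap between KO and WT VSMC (points are libraries, FPM on a log axis). Itga3, Itga6 and Itga7 of KO VSMC lie above those of WT VSMC without overlap.

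EC and WT VSMC under Control differed in 8 of 25 tested members (10.9% of all tested genes were DEG), 6 higher in EC (5.96%) and 2 lower (4.92%). Higher in EC were the laminin receptor chains Itga3 (log2FC 3.13, SE 0.58, edgeR FDR 0.00357) and Itga6 (3.51, SE 0.87, edgeR FDR 0.0150), their relative Itgb4 (3.77, SE 1.22, edgeR FDR 0.0461), the VCAM-1 receptor chain Itga4 (4.58, SE 1.296, edgeR FDR 0.0273), Itgb8 (3.26, SE 0.96, edgeR FDR 0.0329) and Itgav (0.93, SE 0.23, edgeR FDR 0.0144). Lower in EC were the muscle chain Itga7 (-1.58, SE 0.37, edgeR FDR 0.0115) and Itgbl1 (-1.78, SE 0.50, edgeR FDR 0.0264). Itga3 and Itga7 were called under all 30 alternatives run, and Itgb4 under 15 of them. Without WT set 1, 2, 3 or 4 the members called numbered 4, 4, 3 and 3, and without EC sets 15 and 16 they numbered 4. In 4 members the libraries of the 4 WT VSMC sets and the 9 EC sets did not overlap (7.56% of all tested genes): Itgb8 was higher in EC, and Itga7, Itgbl1 and Itgb1bp1 were lower.

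The values behind these calls were uneven within EC. Itga3 had a lowest, median and highest value of 14.3, 87.9 and 131.5 FPM in EC, against 3.15 to 18.4 FPM in WT VSMC, so that 1 EC library lay inside the WT range. Itga4 ran from 1.72 through 11.5 to 216.2 FPM in EC, against 2.06 to 3.57 FPM in WT VSMC. Itgb8 ran from 8.31 through 19.5 to 161.3 FPM, against 1.25 to 6.90 FPM, and Itga7 from 2.33 through 3.54 to 11.99 FPM, against 13.7 to 17.2 FPM. For Itgb8, EC sets 16 and 17 read 146.9 and 161.3 FPM and the other EC sets 8.31 to 23.95 FPM. Sets 16 and 17 also held the highest Itga4 (216.2 and 175.9 FPM). Over their conditions, summed endothelial markers averaged 790.1 and 547.8 FPM there and fibroblast markers 1334 and 1484 FPM. The part of these cell types in the Itgb8 and Itga4 levels was not tested. Itgb1bp1 was lower by 0.60 on the log2 scale (log2FC -0.60, edgeR FDR 0.0345), under the fold threshold. Without EC sets 9, 11 and 13, 10 members were DEG, with Itgb1bp1 and Itgb3 added.

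Several integrin genes ranged widely across the EC cultures. Averaged over conditions, Itga4 was 1.19 to 7.68 FPM in EC sets 9, 11 and 13 and 6.46 to 284 FPM in the other 7 sets, Itga6 was 4.25 to 4.71 against 18.6 to 103 FPM, and Itgb4 was 3.13 to 4.87 against 7.05 to 240 FPM. Itga3 was 17.1 to 45.5 against 76.9 to 143 FPM. The fibrillar collagen receptor chain Itga11 showed the opposite arrangement, with 115 to 346 FPM in the 3 sets against 3.81 to 119 FPM in the others, as did Itgb5 with 847 to 1429 against 154 to 837 FPM. These are descriptions of sets that stand apart by their endothelial markers, given with no test. The part of smooth muscle and fibroblast RNA in these levels was not tested.

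KO VSMC set 5, with the highest Egfr of the KO sets, also stood apart in its integrins. Averaged over its conditions, Itga1 was 147 FPM against 37.0 to 62.7 FPM in KO sets 6 to 8, and Itga5 was 140.6 FPM against 57.5 to 67.5 FPM. Itga9 was 41.2 FPM there and 7.40 to 13.6 FPM in the other KO sets. The 4 WT VSMC sets read 102.3 to 165.1 FPM for Itga1, 24.6 to 45.8 FPM for Itga9 and 77.0 to 90.3 FPM for Itga5, so set 5 lay inside the WT range for Itga1 and Itga9 and above it for Itga5. Summed markers of other cell types stood apart in set 5 as well. Leukocyte markers were 155.2 FPM there against 15.2 to 36.6 FPM in sets 6 to 8, fibroblast markers 1493 against 233.1 to 810.6 FPM, neural crest and Schwann markers 46.5 against 9.79 to 13.6 FPM, endothelial markers 24.1 against 6.03 to 11.3 FPM and smooth muscle markers 3239 against 896.3 to 2001 FPM. Mesothelial and epithelial markers were lower, 7.36 against 31.5 to 74.2 FPM. The part of these cell types in the Egfr and integrin levels of set 5 was not tested.

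The matrix proteins that these receptors bind, and the adaptors inside the cell, were counted from lists that were assembled with the results known. In WT VSMC with ALL stressors 0 of 11 talin, kindlin and related regulators were DEG, and 2 of 29 focal adhesion genes were, both higher: Fblim1 (log2FC 0.93), which links filamin to kindlin, and the docking protein gene Nedd9 (0.74). Of 17 RGD and short-motif ligands 1 was a DEG, the matrix glycoprotein Tnc (1.49), a ligand of alpha9 and alphaV receptors. Of 13 laminin and basement membrane genes 3 were DEG, Lama5 (1.53) and Nid2 (0.70) higher and Lama4 (-0.92) lower, and of 10 collagens 2 were lower, Col6a3 (-1.11) and Col3a1 (-0.68). The background for these shares is the 2.18% given above.

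In KO VSMC 0 of these ligand and adaptor genes were DEG with HG + FFA, AII + NA or ALL (0.285%, 0% and 0.314% of all tested genes). In EC with ALL stressors 1 of 17 RGD and short-motif ligands was a DEG, the Itga8 ligand Npnt (log2FC -0.68), 2 of 13 laminin and basement membrane genes were, Lamb3 (-0.90) and Lama2 (-0.75), and 2 of 10 collagens were, Col6a3 (-0.71) and Col1a2 (-0.64), all lower, where 0.641% of all tested genes were DEG. With HG + FFA alone Lama2 (-0.71), Col1a1 (-0.73) and Col1a2 (-0.71) fell in EC (0.647% of all tested genes were DEG). The 11 talin and kindlin genes and the 30 focal adhesion genes tested in EC gave 0 DEG with either.

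Between EC and WT VSMC under Control, 3 of 11 talin, kindlin and related regulators and 6 of 30 focal adhesion genes were higher in EC and 0 lower, among them the filamin gene Flna (0.78), the kindlin gene Fermt2 (0.75), the parvin gene Parvb (2.73), caveolin (Cav1, 2.38) and vinculin (Vcl, 1.27). Of 17 RGD and short-motif ligands 2 were higher, with fibronectin (Fn1, 1.87) first, and 2 lower, Edil3 (-3.29) and the alpha9 ligand Svep1 (-2.42). Of 13 laminin and basement membrane genes Lama1 (3.58) and Lamb1 (0.87) were higher and Lama2 (-2.42) lower, and 0 of 10 collagens were DEG. The leukocyte integrin counter-receptor Icam2 was higher in EC (5.64), 1 of 7 tested in its list. The share of all tested genes that differed here was the 10.9% given above.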

How the data were processed

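Bulk RNA-seq of 69 libraries was used. Per the labels and the paper, the authors aligned reads with HISAT2 2.1.0 to mm39 and counted them per gene with featureCounts over exons, multi-mapped reads included; strand handling is not given in the sources used here. The deposited tables hold raw counts per gene, unfiltered and not normalised, with 1 table for each cell type. Gene types, symbols and exon lengths came from a GENCODE annotation of GRCm39, which is not the release used for counting: 643 identifiers, with 0.0241% of counts, were not in it.

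The counts were fitted with edgeR 4.0.16 (TMM, low-count filter, quasi-likelihood test) and DESeq2 1.42.0 in R 4.3.3, with Benjamini-Hochberg adjustment over all tested genes, with a separate fit of each cell type for stressor effects and jointly over 2 cell types for differences of effects. Control levels were compared in 1 fit of the Control libraries of all cell types, without a block. The set number was the block in stressor fits, as in the study's paired design: a set is a culture of 1 animal at 1 passage treated at the same time, and deviations of libraries with the same number correlated at a mean r of 0.797, 0.780 and 0.820 (lowest 0.494, 0.642 and 0.609) in WT VSMC, KO VSMC and EC, against -0.269, -0.280 and -0.091 for other numbers. Deviations were taken from the mean of each condition. That centring by itself makes the correlations for other numbers negative, so they carry no weight for the pairing. A single animal gave both EC set 17 and EC set 18. A DEG had an FDR under 0.05 in both tools, a log2FC of at least 0.64 in size by edgeR, a mean of 3 FPM in 1 compared group and the type protein-coding or lncRNA. Ratios within sets used a pseudocount of 0.1 FPM. Totals were 23626664 to 37801299 counts in WT VSMC, 23238979 to 35120866 in KO VSMC and 17166133 to 43240489 in EC. No 2 libraries of a group were alike within counting error (smallest chi-square per gene 45.9). The scripts were tested on simulated data.

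Genes are described by name where a cell type mean reached 3 FPM. Promoter windows are 250 bases before RefSeq gene starts on GRCm38.p6. The members, the gene lists and the tests were chosen with earlier results of these data known. Alternatives tried were other scalings, filters, thresholds, tools and blocks, each set left out in turn, and some EC sets left out together.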

Additional observations from a re-analysis of the deposited data

Results flagged for a closer look

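Within each group of 4 to 10 libraries the most extreme value of each described integrin gene was compared with the rest (Dixon's ratio at its 95% limit). Of 231 groups tested 28 held such a library, in 10 sets, where the limit gives about 1 in 20 for normally distributed values. FPM values were used without a log and need not be normal, so this share does not measure an excess. The flags were also not independent of each other. The libraries of a set share a culture, and the same set could stand out for 1 gene in several conditions.

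In EC, set 13 was high for Itga11 under Control (415.4 FPM), AII + NA (353 FPM) and ALL (327.3 FPM). Set 12 was high for Itga5 with HG + FFA (196 FPM), AII + NA (193 FPM) and ALL (183.8 FPM), and for Itgb4 under Control (307.3 FPM). Set 14 was high for Itga9 under Control (90.65 FPM), and with AII + NA for Itga2b (53.9 FPM) and Itgb3 (137.2 FPM). Set 16 was high for Itga7 with HG + FFA (16.13 FPM) and ALL (14.77 FPM). Set 18 was high for Itga6 under Control (115.5 FPM) and AII + NA (127.4 FPM) and for Itga8 with AII + NA (97.31 FPM), and low for Itgb1bp1 with ALL (15.93 FPM). Set 11 was low for Itgb3bp with HG + FFA (2.59 FPM).

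In KO VSMC, set 5, with the highest Egfr of the KO sets, was high for Itga5 under Control (142 FPM) and AII + NA (133.8 FPM). It was also high for Itga9 under Control (41.1 FPM) and AII + NA (42.35 FPM) and for Itgb8 with AII + NA (11.67 FPM). Set 8 was high for Itgb3 with AII + NA (27.3 FPM). In WT VSMC, set 2 was high for Itga10 with HG + FFA (8.18 FPM), AII + NA (9.524 FPM) and ALL (8.124 FPM), and set 1 was high for Itga11 under Control (179.8 FPM) and ALL (244.3 FPM).

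Stressor effects that differed between cell types by the test of the difference were Itga8 with AII + NA (WT VSMC minus EC, log2 difference 1.489), Itga8 with ALL (2.133) and Itgb3 with ALL (-0.773).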

How the results depend on the processing

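No called difference of a single member changed direction under the 13 to 30 alternatives run for each. The number of described genes whose levels moved by less than 1 SD with DESeq2 size factors or with plain library sizes was 63 of 63 cell type means for each. With no replicate block 0 members were called in WT VSMC with AII + NA and 0 with ALL, and 0 in the differences between WT VSMC and EC with AII + NA and with ALL. Without a log2FC threshold 6 members were called in WT VSMC with ALL and 1 in KO VSMC with HG + FFA, and with a threshold of 1 on the log2 scale 1 remained in WT VSMC with ALL and 1 in the ALL difference between WT VSMC and EC. DESeq2 alone called 1 member in each of WT VSMC ALL against HG + FFA, KO VSMC with HG + FFA, with AII + NA and with ALL, and KO VSMC against WT VSMC. Without a count filter 1 member was called in each of WT VSMC ALL against HG + FFA, KO VSMC with AII + NA and KO VSMC with ALL, and a fit of only the 2 groups called 1 in KO VSMC with ALL.

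With the EC block set by animal in place of set, and likewise without EC sets 15 and 16, the difference between WT VSMC and EC held 0 members with AII + NA and 1 with ALL, and without EC sets 15 and 16 EC against WT VSMC held 4. Leaving out EC sets 9, 11 and 13, an alternative chosen after seeing the data, gave 1 member in EC with ALL. Leaving out each set in turn gave 0 to 1 members in WT VSMC with HG + FFA and with AII + NA, 2 to 3 with ALL, 0 to 1 in KO VSMC with HG + FFA and with ALL, 0 to 1 and 1 to 2 in the AII + NA and ALL differences between WT VSMC and EC, and 3 to 10 in EC against WT VSMC. The cause of these shifts was not tested. With 4 sets per VSMC group and 25 members tested, a change of less than the fold threshold is not resolved by these calls, and members below 3 FPM rest on few counts.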
